A study of Rattus norvegicus with 8 samples.

Results

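The genes described here build and run the G2 phase and mitosis, and were followed in cultured rat oligodendrocyte precursor cells, the dividing glial cells from which myelinating oligodendrocytes arise. A list of 43 gene symbols, chosen by name for their known part in G2 and mitosis, was looked up in the authors' table of 32662 genes. It matched 42 rows, each symbol on 1 row. No row carried the symbol Ccnb2, which was not analysed here. The 42 measured genes comprised 11 G2 kinases, cyclins and their regulators, 10 kinetochore and centromere genes, 7 genes of the spindle checkpoint and the ubiquitin ligase it restrains, 7 spindle and chromosome genes and 7 cytokinesis genes.

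The study compared 4 Control with 4 OGD libraries. OGD stands for oxygen glucose deprivation, a culture model of ischaemia, applied for 6 h, and the series design describes Control cells as incubated under normal conditions for the same 6 h. All cells came from the cerebral cortex of Sprague Dawley rats aged 1 to 2 days, grew in mixed glial culture with 20% serum, were taken as the cells that did not adhere, and were then kept for 4 to 5 days with PDGF and FGF at 10 ng/ml each, 2% B27, 2 mM glutamine and 1% antibiotic. No label says that the 4 libraries of a group came from separate cultures or litters, so p-values measure the spread between these libraries, which may be technical.

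Values are FPKM, fragment counts scaled for gene length and for the library's total. Comparing levels between libraries also assumes that the rest of each library is alike. Mitochondrially encoded genes took from 20.4% (OGD 4) to 30.4% (OGD 2) of summed FPKM, so that assumption holds only in part. Fragment totals are unknown. Ratios of the lowest values between libraries gave depths relative to Control replicate 1 of 0.817 to 1.18. Defining genes of the precursor lineage were abundant in every library, with a summed level of Pdgfra, Cspg4, Olig1, Olig2, Sox10 and Ptprz1 of 1973 to 2076 FPKM in Control and 1286 to 1461 FPKM in OGD. Of these 6 genes, 4 fell in OGD and 0 rose, where 26.8% of all genes tested fell and 22.7% rose. Endothelial and pericyte genes were at or near 0 (5 matched genes, summed level 0.220 to 0.365 FPKM in Control and 0.171 to 0.331 FPKM in OGD, with Cldn5 listed at 0 in all 8 libraries). Microglial RNA was present: the 12 matched markers, none of them at 0 in any library, summed to 201 to 331 FPKM in Control and 65.0 to 119.7 FPKM in OGD, and 10 of the 11 tested fell. Microglia also divide in culture, and their part in the mitotic values below was not tested. In bulk libraries, fewer dividing cells and less RNA per dividing cell cannot be told apart.

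As background, a cell enters mitosis when cyclin-dependent kinase CDK1, bound to A and B cyclins, is released from inhibitory phosphorylation. WEE1 adds that phosphorylation and the CDC25 phosphatases remove it. Kinetochores then attach chromosomes to spindle microtubules, the spindle checkpoint holds back the anaphase-promoting complex until every chromosome is attached, and the complex then marks securin and cyclin B for destruction so that the cell can divide. Most genes of this machinery are transcribed late in the cell cycle. Their promoters often carry a cell-cycle homology region, whose core word is TTTGAA, near the transcription start, and CCAAT boxes, the sites of the factor NF-Y, upstream of it. The MuvB complex binds the former, with MYBL2 and FOXM1 in cycling cells. Oligodendrocyte precursors keep dividing in response to PDGF and FGF.

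Promoter windows of 300 bases (250 before and 50 after the annotated start, RefSeq, build GRCr8) were matched by symbol for 34 of the 42 genes. The 8 without an entry were Aurkb, Ccna2, Foxm1, Incenp, Racgap1, Tpx2, Ube2c and Wee1. The word TTTGAA stood, on either strand, in 25 of 34 windows (73.5%), against 18.1% of all 27457 windows of the same length, and CCAAT in 25 of 34 (73.5%) against 37.7%. Both words were in 19 of 34 windows, against 7.25% of all. The 4 words of E2F sites (TTTCCCGC, TTTGGCGC, TTTCGCGC and TTTGCCGC) were found in 1 member window, that of Cdk1, and in 2.25% of all windows. A match describes the letters only and is no measure of binding. The last 150 bases before the start are given for 11 genes, chosen after their values were seen, to represent genes that fell in OGD, did not pass the test, or rose. TTTGAA and CCAAT are in capitals, in either orientation (TTCAAA and ATTGG on the reverse strand). In GRCr8 the stretches are chr10:13783670-13783819 (minus strand) for Ccnf, chr6:31431553-31431702 (minus strand) for Cenpa, chr5:142483200-142483349 (minus strand) for Cdca8, chr3:74396719-74396868 (minus strand) for Spc25, chr2:33655226-33655375 (minus strand) for Ccnb1, chr20:19265143-19265292 (plus strand) for Cdk1, chr5:137255800-137255949 (minus strand) for Cdc20, chr10:25665216-25665365 (minus strand) for Hmmr, chr1:241840866-241841015 (plus strand) for Kif20b, chr2:226310907-226311056 (plus strand) for Cenpe and chr3:138860023-138860172 (plus strand) for Cdc25b; the authors' values were made on build rn6. The first 5 fell in OGD.
Ccnf: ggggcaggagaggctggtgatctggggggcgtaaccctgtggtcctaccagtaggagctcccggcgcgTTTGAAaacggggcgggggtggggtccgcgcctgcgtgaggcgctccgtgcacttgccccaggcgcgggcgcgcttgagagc
Cenpa: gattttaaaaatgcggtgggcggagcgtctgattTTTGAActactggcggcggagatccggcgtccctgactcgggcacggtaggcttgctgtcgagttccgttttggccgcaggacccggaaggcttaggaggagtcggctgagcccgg
Cdca8: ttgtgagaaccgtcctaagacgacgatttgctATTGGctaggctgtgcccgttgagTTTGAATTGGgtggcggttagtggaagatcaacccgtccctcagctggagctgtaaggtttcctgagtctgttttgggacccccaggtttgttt
Spc25: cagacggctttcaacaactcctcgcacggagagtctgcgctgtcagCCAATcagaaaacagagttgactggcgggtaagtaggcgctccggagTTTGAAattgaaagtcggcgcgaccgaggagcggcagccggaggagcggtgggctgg
Ccnb1: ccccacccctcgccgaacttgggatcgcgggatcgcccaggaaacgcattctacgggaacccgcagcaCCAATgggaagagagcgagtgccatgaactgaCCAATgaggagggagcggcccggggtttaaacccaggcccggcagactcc
The next 3 did not pass the test.
Cdk1: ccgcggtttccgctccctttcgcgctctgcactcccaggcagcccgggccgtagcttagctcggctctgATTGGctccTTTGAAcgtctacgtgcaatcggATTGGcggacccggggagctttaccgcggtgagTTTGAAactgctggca
Cdc20: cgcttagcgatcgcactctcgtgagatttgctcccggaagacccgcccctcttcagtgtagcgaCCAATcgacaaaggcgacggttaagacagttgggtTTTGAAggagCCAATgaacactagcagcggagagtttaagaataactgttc
Hmmr: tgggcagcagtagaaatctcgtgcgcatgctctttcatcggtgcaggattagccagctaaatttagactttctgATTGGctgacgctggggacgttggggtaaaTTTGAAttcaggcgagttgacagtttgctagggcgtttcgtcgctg
The last 3 rose.
Kif20b: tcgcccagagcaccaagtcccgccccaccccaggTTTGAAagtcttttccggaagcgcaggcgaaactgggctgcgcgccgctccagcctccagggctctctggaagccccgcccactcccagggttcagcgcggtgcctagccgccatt
Cenpe: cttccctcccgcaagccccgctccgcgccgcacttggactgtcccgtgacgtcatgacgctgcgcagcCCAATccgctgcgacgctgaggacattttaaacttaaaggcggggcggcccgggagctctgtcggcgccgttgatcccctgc
Cdc25b: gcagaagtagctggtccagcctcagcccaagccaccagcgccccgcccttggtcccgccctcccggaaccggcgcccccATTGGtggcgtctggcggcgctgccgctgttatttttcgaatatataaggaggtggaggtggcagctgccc

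In these stretches Cdk1 held TTTGAA at positions -72 and -16 and ATTGG at -81 and -49 (first base of the word, with -1 the last base before the start). Cdc20 and Hmmr held TTTGAA at -51 and -46. In Cdca8 the word overlapped a CCAAT box, in the run TTTGAATTGG. Over the windows that could be read, TTTGAA was present in 11 of the 12 genes that fell in OGD, Ccnb1 being the exception, in 13 of the 17 that did not pass the test, and in 1 of the 5 that rose, Kif20b. The other 4 rising genes, Cdc25b, Cenpe, Bub1 and Kif2c, had no TTTGAA in the window. Only this exact word was searched and variants of it were not, so its absence does not show that the region is absent. This split was noticed after the calls were known and was not tested. Among companion mitosis genes, described further on, the counts were 15 of 41 falling, 6 of 15 rising and 26 of 60 other windows with TTTGAA. Over all tested genes with a window it was 10.7% of those that fell, 10.6% of those that rose and 11.5% of the rest.

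**Figure D1:**
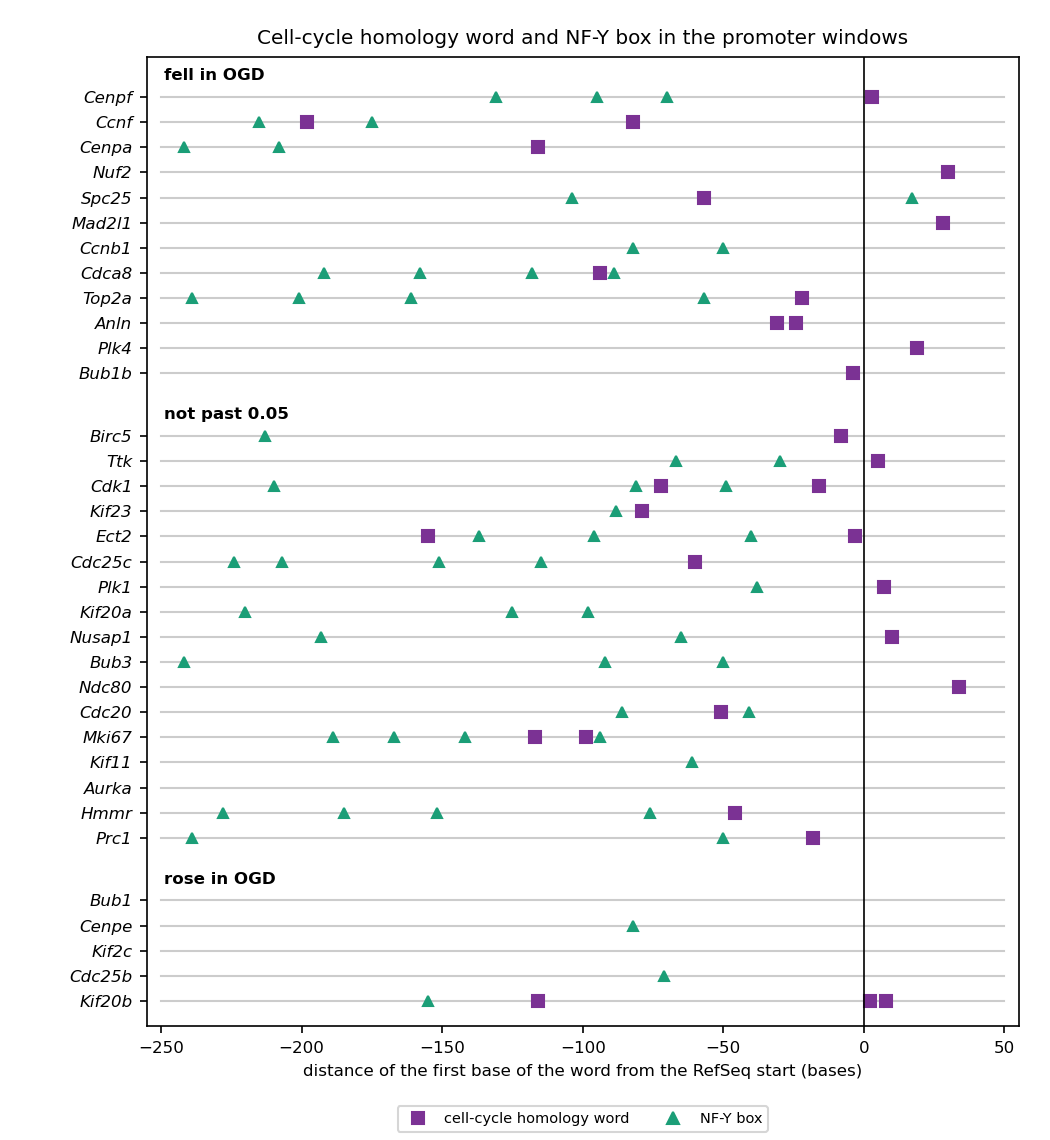
Position of TTTGAA, the only cell-cycle homology word searched (squares), and of the NF-Y box (triangles) in the promoter windows of 34 genes. The x axis gives bases from the RefSeq start, and genes are grouped by their change in OGD. Squares stand in 11 of 12 windows of genes that fell, 13 of 17 that did not pass the test and 1 of 5 that rose.

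After 6 h of OGD the called changes among the G2 and mitosis genes went in both directions, mostly downward. Of 42 genes, all of which passed the filter of at least 1 FPKM in at least 4 libraries, 16 fell, 5 rose and 21 did not pass the test, against 49.5% of all genes called in either direction (limma on log2(FPKM + 1), Benjamini-Hochberg adjusted p under 0.05 over all 11149 genes tested). The share that fell was 38.1%, against 26.8% of all genes tested, and the share that rose was 11.9%, against 22.7%. The median log2 change was -0.16, beside -0.04 for all genes tested. The change was negative for 33 of the 42 genes, a count not made over all genes tested. With 4 libraries a group, not passing the test does not show that a gene was unchanged. No member passed with a change of at least 2-fold, as 4.19% of all genes did. The OGD libraries lay wholly below the Control libraries for 14 genes and wholly above for 2, where 24.1% and 20.7% of all tested genes showed such separation. Kinetochore genes held 7 of the 16 falls and G2 cyclins and kinases another 5, while the checkpoint, spindle and cytokinesis genes together held 4.

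Of the 21 calls, 14 (13 falls and 1 rise) were kept in each of 17 alternative settings. The 7 others (Plk4, Bub1b and Anln lower, Cdc25b, Cenpe, Bub1 and Kif2c higher) were lost in at least 1. Leaving out single libraries gave 13 to 21 falls and 1 to 5 rises. The number of rises was 2 without Control replicate 1, 3 without Control 2, 1 without Control 3, and 3 without OGD 1 or OGD 4. Without OGD replicate 4 the falls numbered 21, and without Control 1 and OGD 4 together they numbered 23 and the rises 2.

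**Figure D2:**
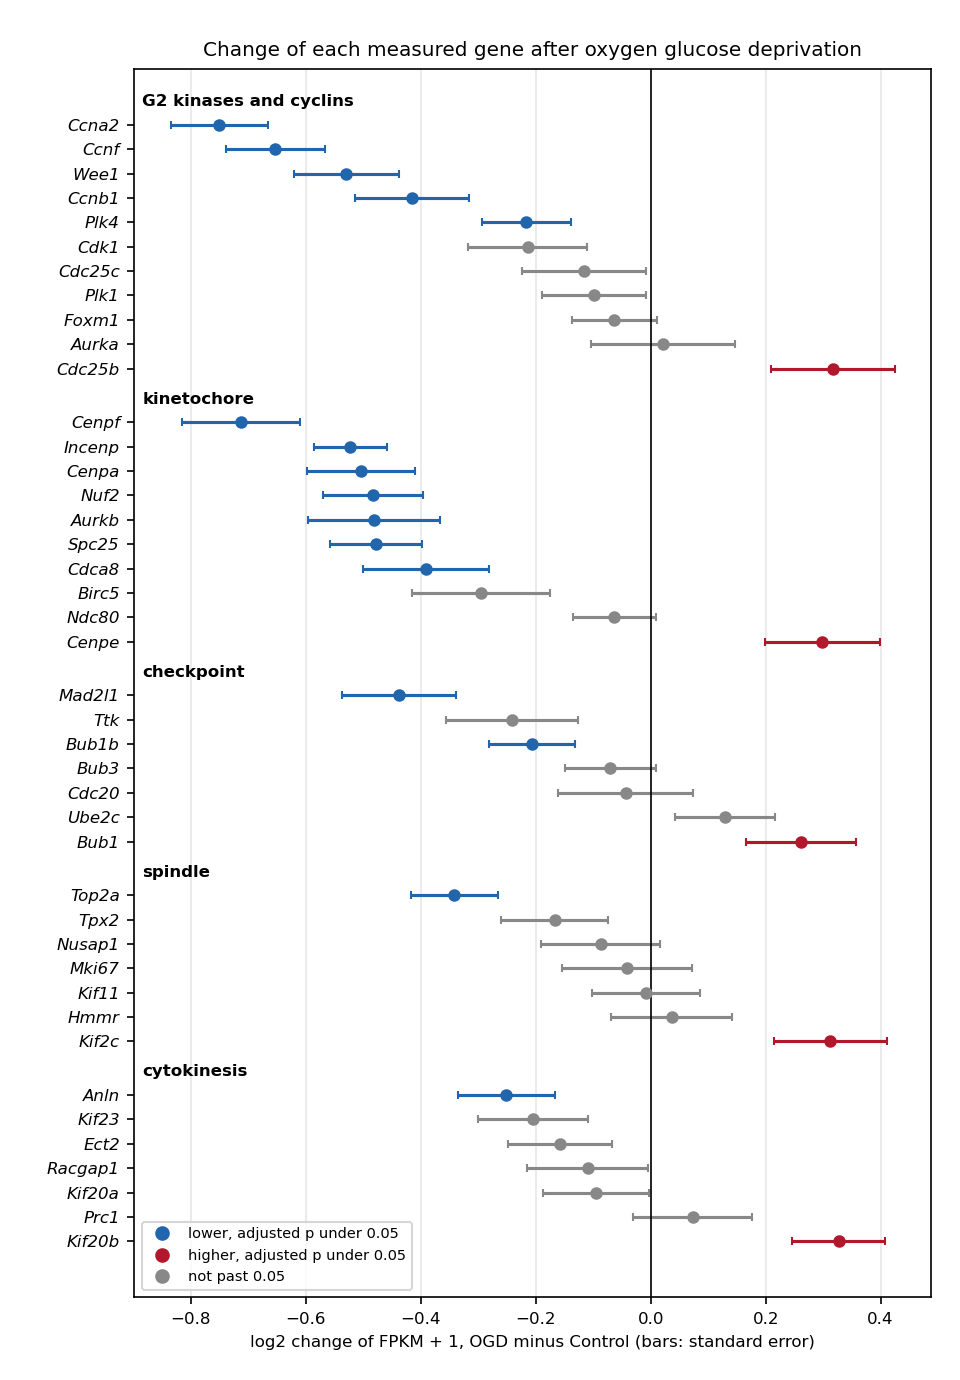
Change of each of the 42 genes on the log2(FPKM + 1) scale (x axis, OGD minus Control, points with standard error bars, n = 4 libraries a group), by role. The 16 genes that fell are blue, the 5 that rose red and the 21 that did not pass grey; the largest fall was that of Ccna2 (-0.75) and the largest rise that of Kif20b (0.33).

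In the Control libraries, mean levels ran from 5.65 FPKM (Cdc25c) to 130.2 FPKM (Ube2c), with a median of 34.3 FPKM, against 11.1 FPKM over all tested genes, and 36 of the 42 genes stood above that. The lowest value of any member in any library was 4.51 FPKM. The 5 highest in Control were Ube2c, Cdk1, Ccna2, Prc1 and Top2a. In OGD the order was Ube2c, Prc1, Cdk1 and Cdc20, and Ccna2 moved from rank 3 to rank 7. The means of Cdk1 and Ccna2 in Control, 97.4 ± 5.03 and 97.0 ± 8.36 FPKM (SD, n = 4 each), were closer than their spread. The spread between libraries is given by the coefficient of variation. Its median was 8.18% in Control and 11.1% in OGD, beside 8.22% and 9.67% for the 8230 tested genes with a mean of at least 5 FPKM.

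**Figure D3:**
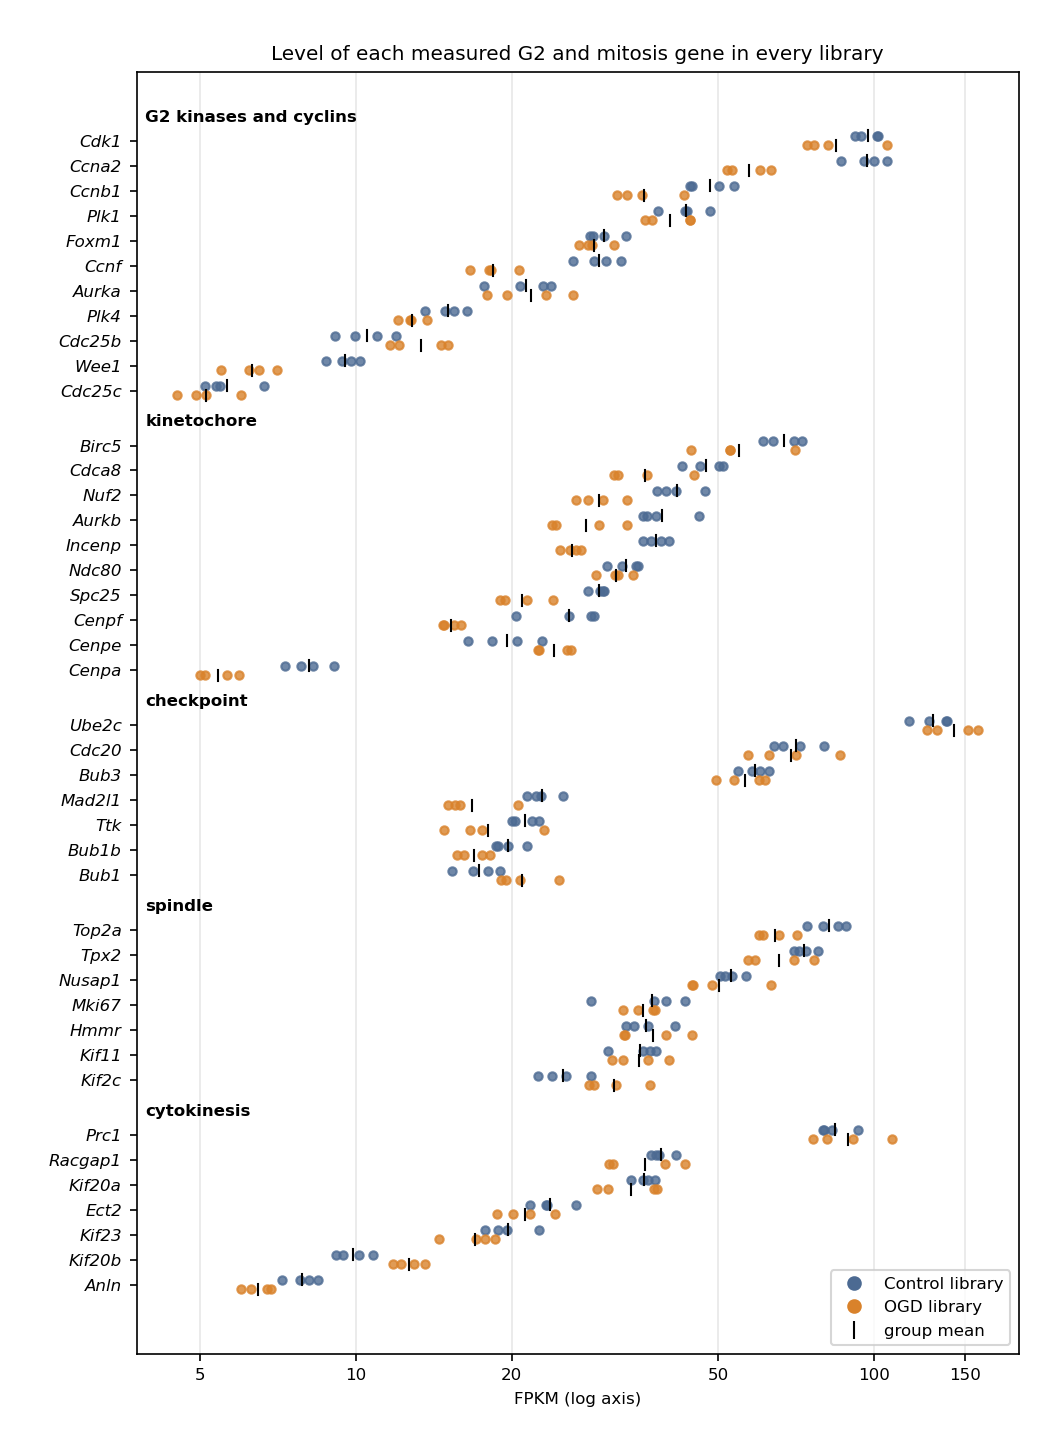
FPKM of each of the 42 genes in every library (log x axis), by role and ordered by Control mean; blue points are the 4 Control libraries, orange points the 4 OGD libraries and black ticks the group means. Ube2c was the highest gene in both groups, and the orange points lie wholly left of the blue ones for 14 genes.

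Among the cyclins and kinases of G2, the measured cyclins Ccna2, Ccnf and Ccnb1 fell, whereas the kinases Cdk1, Plk1 and Aurka did not pass the test. Ccna2 (ENSRNOG00000015423), the A cyclin that acts in S phase with CDK2 and in G2 with CDK1, stood at 86.2, 95.6, 100.3 and 106 FPKM in Control replicates 1 to 4 and at 52.1, 53.2, 60.4 and 63.4 FPKM in OGD replicates 1 to 4. The highest OGD library lay well below the lowest Control library, and the OGD mean was 59.1% of the Control mean, so that Ccna2 fell by 0.75 ± 0.08 on the log2 scale (SE; limma, adjusted p = 5.11e-05). Ccnf (ENSRNOG00000007483), which encodes cyclin F, the substrate receptor of a ubiquitin ligase of G2, was measured at 26.3, 30.4, 28.9 and 32.5 FPKM in Control and 16.6, 18.2, 18.1 and 20.6 FPKM in OGD. Here too the groups were apart, and Ccnf fell to 62.4% of Control (log2 change -0.65 ± 0.09 SE, limma adjusted p = 1.38e-04). For Ccnb1 (ENSRNOG00000058539), the B cyclin that starts mitosis, the values were 50.2, 44.5, 44.2 and 53.8 FPKM in Control and 33.4, 31.9, 35.7 and 42.9 FPKM in OGD. OGD 4 came close to Control 2 and 3 without reaching them, and the gene fell to 74.7% (log2 change -0.42 ± 0.10 SE, limma adjusted p = 0.00538).

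Cdk1, the partner of these cyclins, was at 101, 91.8, 94.6 and 102 FPKM in Control and 76.7, 74.2, 81.4 and 106 FPKM in OGD. OGD 1 to 3 lay below all Control libraries and OGD 4 above them, and the change of -0.21 ± 0.10 did not pass (limma, adjusted p = 0.108). Without OGD 4 it was -0.33 and passed (limma adjusted p = 0.00235). Among 5 genes that set the phosphorylation of CDK1, Wee1 fell, Cdc25b rose, and Cdc25c, Cdc25a and Pkmyt1 did not pass. Wee1 (ENSRNOG00000010017), the inhibitory kinase, was low, at 8.77, 10.2, 9.39 and 9.79 FPKM in Control and 6.21, 5.49, 6.50 and 7.04 FPKM in OGD. All OGD values were below all Control values, and Wee1 fell to 66.2% (log2 change -0.53 ± 0.09 SE, limma adjusted p = 7.75e-04). Cdc25b (ENSRNOG00000021248), an activating phosphatase, was at 11.0, 9.12, 9.96 and 11.97 FPKM in Control and 14.6, 15.1, 11.6 and 12.1 FPKM in OGD. OGD 1 and 2 were the highest and OGD 3 overlapped Control, and Cdc25b rose to 127% (log2 change 0.32 ± 0.11 SE, limma adjusted p = 0.0309). That call was lost without Control 2, Control 3, OGD 1 or OGD 2 (limma adjusted p = 0.0766 to 0.0858). Its relative Cdc25c, the lowest member, was at 5.65 ± 0.672 FPKM in Control and 5.14 ± 0.627 FPKM in OGD (adjusted p = 0.397, limma). Among the companion genes, named here after their values were seen, Cdc25a, another phosphatase of the family, differed by -0.15 ± 0.10 on the log2 scale (limma adjusted p = 0.219), and Pkmyt1, a kinase related to WEE1, by -0.25 ± 0.13 (limma adjusted p = 0.138).

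Of the mitotic kinases, Plk4 (ENSRNOG00000011654), which licenses centriole duplication, was at 13.6, 15.4, 14.9 and 16.4 FPKM in Control and 12.8, 12.7, 12.1 and 13.7 FPKM in OGD. The groups overlapped only by OGD 4 and Control 1, and Plk4 fell to 85.1% (log2 change -0.22 ± 0.08 SE, limma adjusted p = 0.0387), a call lost without Control 2, 3 or 4 or OGD 1, 2 or 3 (limma adjusted p = 0.0708 to 0.116). Plk1, the polo kinase of mitotic entry, and Aurka, the centrosomal Aurora kinase, did not pass. Plk1 was at 43.3 ± 4.05 FPKM in Control and 40.4 ± 4.30 FPKM in OGD, and Aurka at 21.3 ± 2.73 and 21.8 ± 3.78 FPKM (limma, adjusted p = 0.391 and 0.905). Foxm1, the transcription factor that drives many genes of this set, was at 30.1 ± 2.24 and 28.8 ± 1.90 FPKM (adjusted p = 0.501, limma).

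Kinetochore and centromere genes gave the largest share of falls, 7 of 10, with 1 rise and a median log2 change of -0.48. Of all genes tested, 26.8% fell and 22.7% rose. Cenpf (ENSRNOG00000003388), a large coiled-coil protein of the outer kinetochore, stood at 20.4, 28.8, 25.8 and 28.4 FPKM in Control and 14.8, 15.9, 15.5 and 14.7 FPKM in OGD. The 4 OGD libraries were close together and all below Control 1, the lowest Control library, and Cenpf fell to 59.0% (log2 change -0.71 ± 0.10 SE, limma adjusted p = 2.42e-04). Cenpe (ENSRNOG00000009339), a kinesin motor at the same site, went the other way, from 16.5, 20.5, 18.3 and 22.9 FPKM in Control to 22.5, 22.5, 25.6 and 26.0 FPKM in OGD. OGD 3 and 4 exceeded every Control library and OGD 1 and 2 lay just under Control 4, and the rise to 124% (log2 change 0.30 ± 0.10 SE, limma adjusted p = 0.0291) was lost without Control 1 or 3 or OGD 3 or 4 (limma adjusted p = 0.0643 to 0.0775). Cenpa (ENSRNOG00000032178), the histone H3 variant that marks the centromere, had 7.31, 8.25, 7.84 and 9.09 FPKM in Control and 5.11, 5.00, 5.65 and 5.94 FPKM in OGD. Its groups did not overlap, and it fell to 66.8% (log2 change -0.50 ± 0.09 SE, limma adjusted p = 0.00118).

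The NDC80 complex, which grips the microtubule end, changed in part. Nuf2 (ENSRNOG00000002711) was at 41.4, 38.2, 39.8 and 47.2 FPKM in Control and 26.6, 28.1, 30.0 and 33.3 FPKM in OGD, and fell to 70.9% (log2 change -0.48 ± 0.09 SE, limma adjusted p = 0.00103). Spc25 (ENSRNOG00000006731), a subunit at the other end of the rod, was at 30.1, 28.1, 30.2 and 29.6 FPKM in Control and 19.4, 19.0, 24.0 and 21.4 FPKM in OGD. It fell to 71.1% (log2 change -0.48 ± 0.08 SE, limma adjusted p = 6.59e-04), and in neither gene did the groups overlap. Ndc80 itself was at 33.2 ± 2.07 FPKM in Control and 31.8 ± 2.13 FPKM in OGD, which overlapped (limma, adjusted p = 0.490). The remaining subunit, Spc24, a companion gene named after its values were seen, was at 19.2 ± 2.79 FPKM in Control and 22.9 ± 9.37 FPKM in OGD and did not pass (limma, adjusted p = 0.522).

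Of the 4 subunits of the chromosomal passenger complex, which corrects faulty attachments, 3 fell, where 26.8% of all genes tested did. Incenp (ENSRNOG00000032929), the scaffold, was at 35.8, 38.9, 37.1 and 40.3 FPKM in Control and 24.8, 26.6, 27.2 and 25.9 FPKM in OGD. Both groups were tight and lay far apart, at 68.8% of Control (log2 change -0.52 ± 0.06 SE, limma adjusted p = 8.29e-05). Aurkb (ENSRNOG00000005659), the kinase of the complex, had 36.5, 35.9, 38.0 and 45.9 FPKM in Control and 23.9, 24.4, 29.5 and 33.4 FPKM in OGD, and fell to 71.2% (log2 change -0.48 ± 0.12 SE, limma adjusted p = 0.00530). Cdca8 (ENSRNOG00000031431), which encodes borealin, had 50.1, 42.6, 46.1 and 51.1 FPKM in Control and 31.5, 32.0, 36.5 and 44.9 FPKM in OGD. OGD 4 alone reached into the Control range, and Cdca8 fell to 76.3% (log2 change -0.39 ± 0.11 SE, limma adjusted p = 0.0122). Birc5, which encodes survivin, was at 72.8, 61.0, 63.9 and 70.2 FPKM in Control and 52.7, 44.4, 52.7 and 70.3 FPKM in OGD. Again OGD 4 lay within Control and OGD 1 to 3 below it. The change of -0.30 ± 0.12 did not pass (limma, adjusted p = 0.0625), but without OGD 4 it was -0.42 and passed (limma adjusted p = 0.00277).

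In the spindle checkpoint 2 of 7 genes fell and 1 rose (28.6% and 14.3%, beside 26.8% and 22.7% of all genes tested). Mad2l1 (ENSRNOG00000005376), whose product MAD2 binds and restrains CDC20, was at 22.3, 21.4, 22.8 and 25.2 FPKM in Control and 15.1, 15.9, 15.5 and 20.6 FPKM in OGD. OGD 1 to 3 were close together and OGD 4 stood above them, still under every Control library, and Mad2l1 fell to 73.1% (log2 change -0.44 ± 0.10 SE, limma adjusted p = 0.00401). Bub1b (ENSRNOG00000007906), which encodes the checkpoint protein BUBR1, was at 18.6, 19.7, 18.8 and 21.4 FPKM in Control and 16.2, 15.7, 17.5 and 18.2 FPKM in OGD. Its groups did not overlap but were close, and its fall to 86.0% (log2 change -0.21 ± 0.08 SE, limma adjusted p = 0.0403) was lost without Control 2, 3 or 4 or OGD 1, 2 or 3 (limma adjusted p = 0.0521 to 0.123). Bub1 (ENSRNOG00000032778), the related kinase, rose to 121%, from 15.4, 16.8, 18.0 and 19.0 FPKM in Control to 20.7, 19.0, 19.5 and 24.7 FPKM in OGD (log2 change 0.26 ± 0.10 SE, limma adjusted p = 0.0418). OGD 4 was the highest and OGD 2 exceeded Control 4 only narrowly, and the call was lost without Control 1, 2 or 3 or OGD 1 or 4 (limma adjusted p = 0.0614 to 0.106).

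The other 4 genes of this role, Cdc20, Ube2c, Bub3 and Ttk, did not pass. Cdc20, the activator of the anaphase-promoting complex, was at 72.0, 66.6, 64.1 and 80.3 FPKM in Control and 57.1, 62.8, 70.7 and 86.1 FPKM in OGD (limma, adjusted p = 0.783). Ube2c, the ubiquitin-conjugating enzyme of that complex and the highest member in both groups, was at 138, 117, 128 and 139 FPKM in Control and 127, 133, 152 and 159 FPKM in OGD (limma, adjusted p = 0.243). In both genes OGD 4 was the highest of all 8 libraries. Quantile normalization put Ube2c past the threshold, at 0.23 (limma adjusted p = 0.0187). Bub3, which brings the BUB kinases to kinetochores, was at 59.0 ± 3.39 FPKM in Control and 56.3 ± 5.64 FPKM in OGD. Ttk, which encodes the checkpoint kinase MPS1, was at 21.2 ± 1.24 and 18.0 ± 3.55 FPKM (adjusted p = 0.490 and 0.105, limma), and passed without OGD 4 (-0.36, limma adjusted p = 0.00441).

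Of 7 spindle and chromosome genes, 1 fell and 1 rose (14.3% each, beside 26.8% and 22.7% of all genes tested). Top2a (ENSRNOG00000053047), the topoisomerase that untangles chromosomes, was at 74.4, 88.6, 79.8 and 85.1 FPKM in Control and 60.0, 61.2, 65.7 and 71.1 FPKM in OGD. Its highest OGD library was below its lowest Control library, and it fell to 78.7% (log2 change -0.34 ± 0.08 SE, limma adjusted p = 0.00365). Kif2c (ENSRNOG00000019100), a kinesin that shortens microtubules at centromeres, was at 22.5, 25.4, 23.9 and 28.4 FPKM in Control and 28.8, 28.1, 31.8 and 37.0 FPKM in OGD. OGD 4 was the highest, and OGD 2 lay just under Control 4. The rise to 125% (log2 change 0.31 ± 0.10 SE, limma adjusted p = 0.0221) was lost without Control 1 or 3 (limma adjusted p = 0.0587 to 0.0595).

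Tpx2, which activates Aurora A and seeds spindle microtubules, was at 70.1, 73.9, 71.5 and 78.0 FPKM in Control and 58.9, 57.1, 70.1 and 76.7 FPKM in OGD (limma, adjusted p = 0.158). OGD 1 and 2 lay below Control and OGD 3 and 4 at its level, and without OGD 4 the change was -0.24 (limma adjusted p = 0.0284). Mki67, the usual marker of cycling cells, had 28.5, 43.2, 37.6 and 39.7 FPKM in Control and 32.8, 37.5, 37.8 and 35.0 FPKM in OGD. All 4 OGD values lay inside the Control range, which Control 1 widened at its low end, and the change was -0.04 ± 0.11 (limma, adjusted p = 0.783). Kif11, the motor that pushes spindle poles apart, was at 35.4 ± 3.28 FPKM in Control and 35.2 ± 4.07 FPKM in OGD, and Hmmr, a spindle assembly protein, at 36.4 ± 3.58 and 37.5 ± 5.64 FPKM (adjusted p = 0.952 and 0.801, limma). Nusap1, a microtubule-bundling protein, was at 53.0 ± 2.77 and 50.3 ± 8.78 FPKM and passed where OGD 4 was left out (-0.20, limma adjusted p = 0.0310).

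Of 7 cytokinesis genes, 1 fell, 1 rose and 5 did not pass (14.3% fell and 14.3% rose, beside 26.8% and 22.7% of all genes tested). Kif20b (ENSRNOG00000018929), a kinesin of the midbody, was at 9.16, 10.8, 9.43 and 10.2 FPKM in Control and 13.0, 12.2, 11.8 and 13.6 FPKM in OGD. The groups did not overlap and Kif20b rose to 128% (log2 change 0.33 ± 0.08 SE, limma adjusted p = 0.00627), the 1 rise that was kept in each of the 17 alternatives. Anln (ENSRNOG00000014343), which encodes the contractile ring scaffold anillin, was at 7.79, 7.20, 8.11 and 8.45 FPKM in Control and 6.28, 6.86, 6.00 and 6.72 FPKM in OGD. All OGD values were lower than all Control values, and the fall to 82.0% (log2 change -0.25 ± 0.08 SE, limma adjusted p = 0.0292) was lost without Control 3 or 4 or OGD 1 or 3 (limma adjusted p = 0.0658 to 0.0856).

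Prc1, which bundles microtubules of the central spindle, ranked 4 among the members in Control, at 80.3, 79.9, 83.1 and 93.4 FPKM, and 2 in OGD, at 81.1, 76.3, 91.0 and 109 FPKM (limma, adjusted p = 0.584). The OGD libraries spread on both sides of Control. Racgap1 and Kif23 form the centralspindlin complex. Racgap1 was at 37.1, 38.0, 38.5 and 41.6 FPKM in Control and 31.3, 30.8, 39.6 and 43.3 FPKM in OGD (limma, adjusted p = 0.414), with OGD 1 and 2 below and OGD 4 above Control. Kif23 was at 19.7 ± 2.09 FPKM in Control and 16.9 ± 1.75 FPKM in OGD (adjusted p = 0.0967, limma). Ect2, the exchange factor that centralspindlin recruits, was at 23.7 ± 2.05 and 21.2 ± 2.35 FPKM, and Kif20a, a kinesin of the central spindle, at 36.1 ± 1.65 and 33.9 ± 4.64 FPKM (adjusted p = 0.170 and 0.420, limma).

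The members' levels also differed between libraries of 1 group, and mostly together. Replicate 4 was the highest of the 4 Control libraries for 33 of 42 genes and the highest of the 4 OGD libraries for 35. The same counts were not made over all genes tested, so whether this pattern is particular to these genes is not known. Summed over the members, Control replicates 1 to 4 held 1606, 1617, 1623 and 1797 FPKM and OGD replicates 1342, 1351, 1511 and 1696 FPKM. The sum of OGD 4 thus lay among the Control sums. In OGD 1 and 2, 31 members each were below their lowest Control value, in OGD 3, 24, and in OGD 4, 14, while OGD 4 was above the highest Control value for 16. The median deviation from the Control mean was -0.27, -0.23, -0.19 and 0.04 on the log2 scale in OGD 1 to 4.

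Other measures also differed between libraries. Mitochondrially encoded genes took 29.6%, 30.4%, 23.4% and 20.4% of summed FPKM in OGD 1 to 4, and 25.1% to 27.9% in Control, lowest in Control 4. The microglial markers summed to 331 FPKM in Control 4, against 201 to 231 FPKM in Control 1 to 3, and to 119.7 FPKM in OGD 4, against 65.0 to 86.2 FPKM in OGD 1 to 3. Relative depth was highest in OGD 4 among the OGD libraries (1.18), but in Control it was highest in Control 3 (1.11), with Control 4 at 1.07. The part of the mitochondrial share, of microglial cells and of depth in the members' values was not tested. With libraries rescaled to their total outside mitochondrially encoded genes, 13 members fell and 5 rose.

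**Figure D4:**
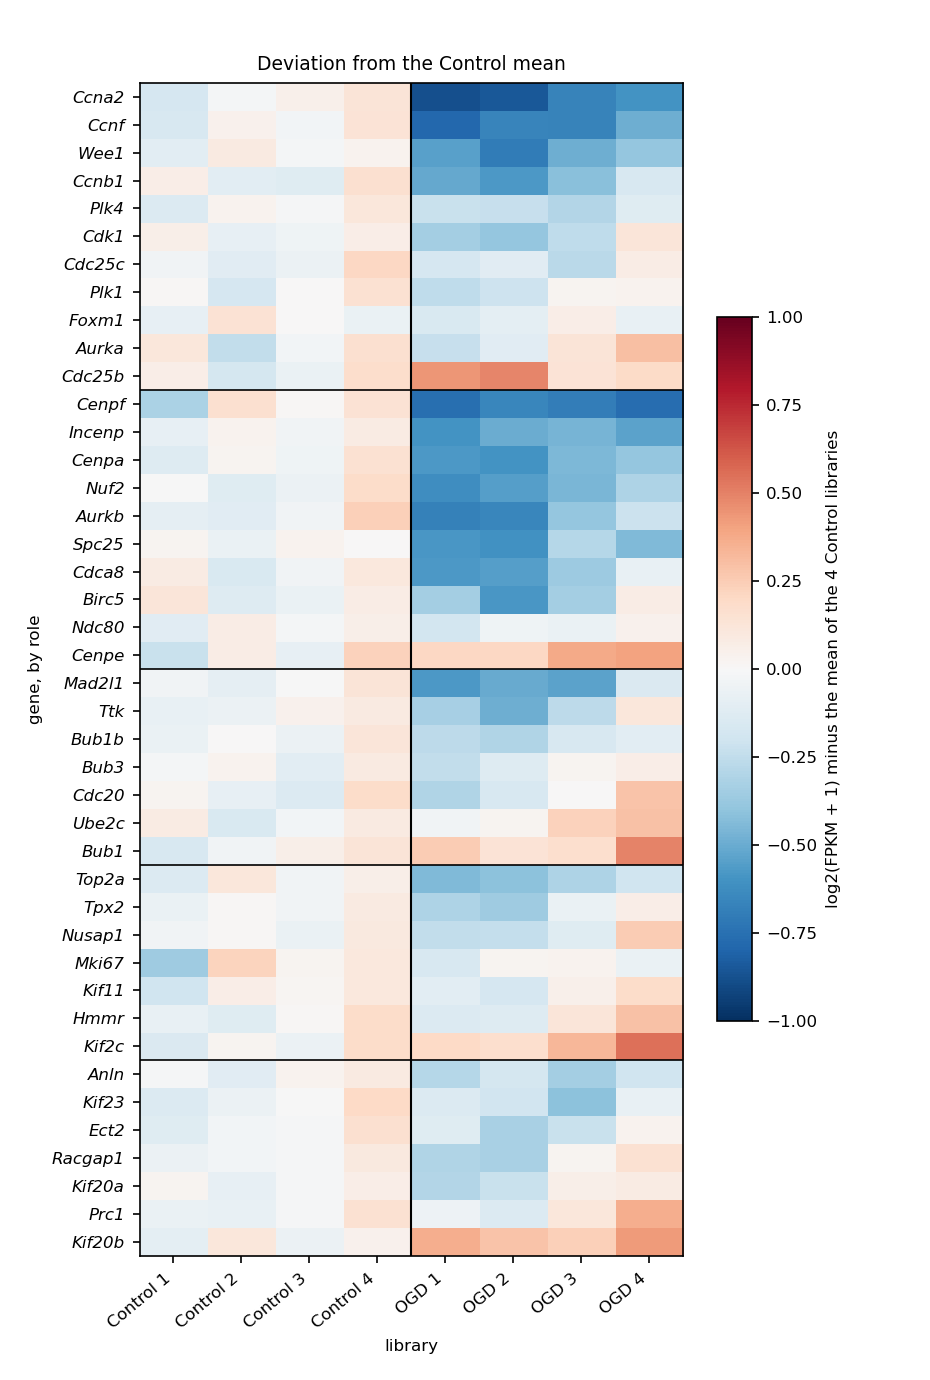
Deviation of each of the 42 genes (rows, by role) in each library (columns) from the mean of the 4 Control libraries, in log2(FPKM + 1); blue is lower and red higher. The OGD columns are mostly blue among kinetochore genes and the cyclins, and OGD 4 is redder than OGD 1 to 3, being the highest OGD library for 35 genes.

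A ratio of 2 genes in the same library does not change with that library's scaling. Such ratios were formed for 16 pairs of partner genes, chosen after the values had been seen and given without a test. They describe these pairs only: how often ratios of other genes separate the groups was not computed, and nothing is read from the number of pairs that do. Cyclin per kinase was lower in OGD: Ccna2 to Cdk1 was 0.850, 1.04, 1.06 and 1.04 in Control 1 to 4 and 0.680, 0.717, 0.741 and 0.597 in OGD 1 to 4. For Ccnb1 to Cdk1 the values were 0.495, 0.485, 0.467 and 0.528 in Control and 0.435, 0.430, 0.439 and 0.404 in OGD. OGD 4, whose Cdk1 level was highest, had the lowest value of both ratios. The ratio of Wee1 to Cdc25b was 0.797, 1.12, 0.943 and 0.818 in Control and 0.425, 0.364, 0.559 and 0.582 in OGD.

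At the kinetochore, Cenpf to Cenpe showed the widest relative gap of the 16 pairs, at 1.23, 1.40, 1.41 and 1.24 in Control and 0.657, 0.707, 0.605 and 0.567 in OGD. Within the NDC80 complex the ratio of Nuf2 to Ndc80 was 1.36, 1.09, 1.22 and 1.36 in Control and 0.918, 0.875, 0.949 and 0.974 in OGD, while that of Spc25 to Nuf2, both of which fell, overlapped (0.626 to 0.758 and 0.643 to 0.801). In the passenger complex the ratio of Incenp to Aurkb overlapped between the groups, with 0.877 to 1.08 in the Control libraries and 0.775 to 1.09 under OGD, and so did those of Birc5 and Cdca8 to Aurkb. Aurkb to Aurka, the 2 Aurora kinases, ranged from 1.58 to 2.03 over the Control libraries and from 1.25 to 1.34 over the OGD libraries. Mad2l1 to its target Cdc20 was 0.309, 0.321, 0.356 and 0.313 in Control and 0.263, 0.253, 0.220 and 0.239 in OGD, and Bub1b to Bub1 1.04 to 1.21 and 0.735 to 0.899. The 1 pair with OGD above Control was Kif2c to Kif11, at 0.735, 0.688, 0.667 and 0.747 in Control and 0.881, 0.901, 0.867 and 0.919 in OGD.

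**Figure D5:**
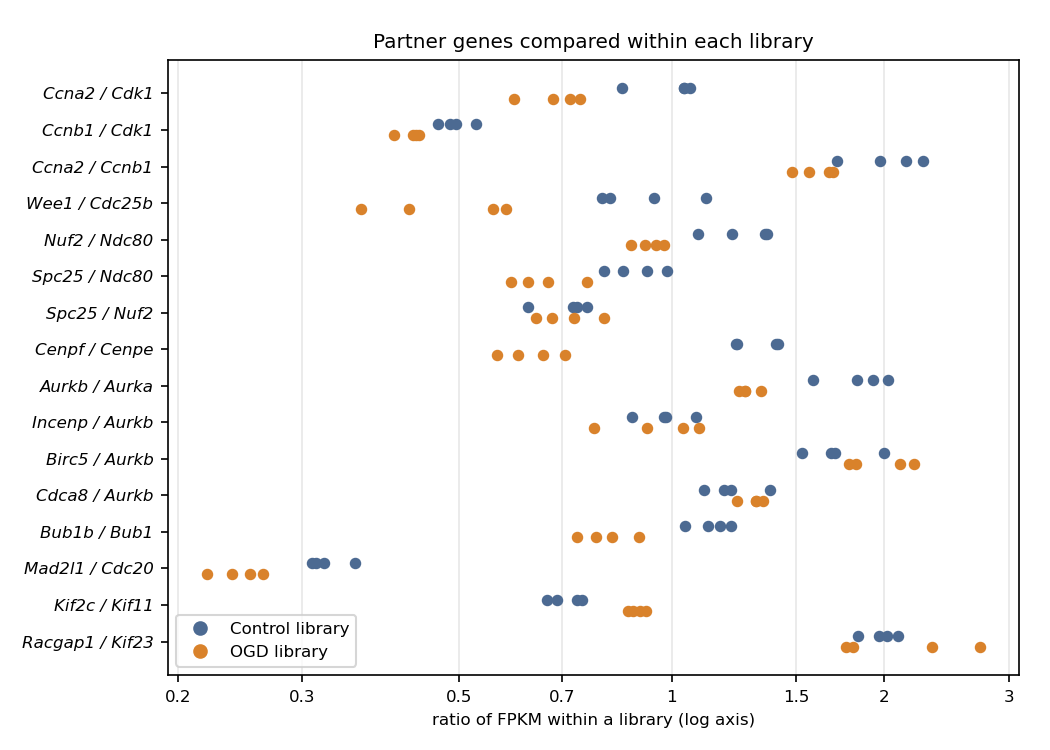
Ratio of FPKM of partner genes within each library (log x axis) for 16 pairs; blue points are the 4 Control and orange points the 4 OGD libraries. Orange lies wholly left of blue for 10 pairs and wholly right for 1 (Kif2c to Kif11).

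Other genes of mitosis, listed by role, were counted in the same fit. Of 135 tested companion genes, 47 fell, 17 rose and 71 did not pass, with a median log2 change of -0.13; 34.8% fell and 12.6% rose, beside 26.8% and 22.7% of all genes. Other kinetochore genes, the longest of these lists, had 15 falls and 2 rises among 32 and a median of -0.28. Cenph, of the inner kinetochore, fell from 17.6 ± 0.982 to 8.95 ± 1.78 FPKM (SD, n = 4 each; log2 change -0.92), and Ska1, which tracks microtubule ends, from 8.32 ± 0.852 to 4.14 ± 0.594 FPKM (-0.86). The anaphase-promoting complex and mitotic exit genes had 9 falls and 3 rises among 22. There Anapc15, which helps the complex shed checkpoint proteins, fell from 56.9 ± 6.59 to 32.3 ± 6.65 FPKM (-0.82), and Cdc27, a core subunit, rose from 22.1 ± 1.91 to 29.3 ± 0.974 FPKM (0.39).

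For the next lists the shares that fell and rose are in brackets, to be read beside 26.8% and 22.7% of all genes tested. Condensin genes had 4 falls and 0 rises among 8 (50% and 0%). Ncaph2 was at -0.55 and Smc2, an ATPase subunit of both condensins, at -0.49. Smc4, the other such subunit, named after its values were seen, did not pass (0.14 ± 0.09 SE, limma adjusted p = 0.225). Cohesin and separase genes had 6 falls and 2 rises among 17 (35.3% and 11.8%). Those with the smallest p were Espl1, which encodes separase, at -0.50 and Esco2, a cohesin acetyltransferase, at -0.51. Other spindle and cytokinesis genes had 7 falls and 6 rises among 29 (24.1% and 20.7%). Kpna2, an importin, was at -0.70 and Haus8, of the augmin complex, at -0.90. Other G2 kinases and regulators had 2 falls and 2 rises among 15 (13.3% each). The rises were Ccng2, a cyclin linked to cell cycle arrest, from 18.0 ± 0.672 to 36.1 ± 5.12 FPKM (0.95), and Lats1, a Hippo pathway kinase, at 0.48. The MuvB list held 12 genes of that complex, its MYB partners, pocket proteins and the factors E2f4, E2f5 and Tfdp1. Of these, 4 fell and 2 rose (33.3% and 16.7%). Mybl2, the MYB factor that joins MuvB in cycling cells, fell from 16.2 ± 0.972 to 9.21 ± 0.858 FPKM (-0.75), and Lin37, a MuvB subunit needed for repression of its targets, rose from 8.50 ± 1.67 to 18.4 ± 1.90 FPKM (1.04). Apart from Smc4, the genes named for these lists are the 2 with the smallest p of each, all past the threshold (limma, adjusted p = 4.96e-07 to 0.00330 with the S phase genes below).

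For comparison, 17 of 23 tested S phase genes fell and 0 rose, with a median log2 change of -0.75, and 6 of them fell at least 2-fold, led by Ccne1 (-1.85) and Ccne2 (-1.37). Over all genes tested, 26.8% fell and 22.7% rose, and 4.19% passed with a change of at least 2-fold in either direction. The difference between the S phase and the mitotic genes was not tested. Ccna2, which acts in both phases, had the largest fall of the G2 and mitosis genes, and at -0.75 it lay at the S phase median.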

How the data were processed

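Gene expression was measured by RNA sequencing of total RNA, with strand-specific libraries per the labels, in 4 Control and 4 OGD libraries of cultured rat oligodendrocyte precursor cells. The authors deposited 1 table of FPKM values per gene for the 8 libraries, in columns named FPKM per the file headers. FastQC, Trimmomatic and the builds rn6 and Rnor_6.0 are named in the submitters' processing notes, and no source used here gives the aligner or the quantification tool. Groups came from the labels, and no pair of libraries held identical values.

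FPKM values were transformed to log2(FPKM + 1), which understates changes of low genes. The 11149 of 32662 genes that reached 1 FPKM in 4 or more libraries were fitted with limma 3.58.1 in R 4.3.3 (group term, trended empirical Bayes), and p-values were adjusted over all of them by the Benjamini-Hochberg method at 0.05. "Rose" and "fell" mean past that threshold. Standard errors are on the same log2 scale. The script was tested on simulated data. Relative depth came from the most common ratio of a gene's value in a library to its value in Control 1. It was taken over genes detected in both at up to 0.5 FPKM.

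The members and all lists were chosen with earlier results of these data known. Of 141 companion genes 137 were matched, 5 by an older symbol, and 135 tested. Cenpp, Cenps, Nek2, Chek1 and, of the S phase list, E2f1 had no row of that symbol and were not analysed here. Haus1 was listed at 0 in all libraries and Cdc14b stayed under the filter. Values in each library are given for members past the threshold and for the 2 with the highest mean and the 2 with the smallest p of each role. Mki67 was added after its values were seen. Companions are named by the 2 smallest p of each list, and Cdc25a, Pkmyt1, Spc24 and Smc4 were added after their values were seen. Promoter windows are RefSeq sequences of GRCr8, searched on both strands. The 17 alternatives changed the pseudocount (0.1), the filter (none, or 5 FPKM), the scaling, the variance trend, the replicate block and the libraries included. Their effect is given in the closing section.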

Additional observations from a re-analysis of the deposited data

Results flagged for a closer look

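Mad2l1 in OGD held 1 library far from the other 3: OGD 4 was at 20.6 FPKM, while OGD 1 to 3 were at 15.1, 15.9 and 15.5 FPKM. Its gap to the nearest of them was 0.851 of the group's range, above the 95% critical value of Dixon's test for 4 libraries. The call that Mad2l1 fell was kept without that library (-0.54; limma adjusted p = 2.92e-04). Across the 84 groups of 4 values examined (42 genes in 2 conditions), this was the 1 group beyond the limit, where chance gives about 1 in 20.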

How the results depend on the processing

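Depth is not known in fragments, and each group has 4 libraries, which limits the precision of each value. No called gene changed direction in the 17 alternatives. The number of members that fell stayed within 13 and 23 and the companion counts within 1.5 times their main values. The number that rose was 2 with no filter on low values, 2 without Control 1 and OGD 4, and 1 to 5 over the leave-one-out fits. The median log2 change was -0.26 without Control 1 and OGD 4 and -0.23 to -0.11 over the leave-one-out fits. With all libraries kept, it was weakest with quantile normalization, at -0.095, and strongest with median-centring, at -0.20. The medians over all genes tested in these settings were -0.011 and -0.069. Apart from single libraries, the lost calls were Cdc25b, Cenpe and Bub1 with no filter (more genes tested), Plk4, Bub1b and Anln with rescaling outside mitochondrial genes, Bub1 with quantile normalization and median-centring, and Bub1 and Bub1b without the variance trend; Cenpe, Bub1 and Kif2c were lost without Control 1 and OGD 4. Why a call was lost in a given setting was not tested. Genes gained were Birc5 with median-centring (-0.33), Ube2c with quantile normalization, and Kif23 and Ect2 without Control 1 and OGD 4, beside those gained without OGD 4. For both Kif23 and Ect2, Control 1 was the lowest Control library and OGD 4 the highest OGD library, so leaving them out favours a fall. Genes that had not passed changed sign as follows. Median-centring gave Aurka -0.012. Quantile normalization gave Bub3 8.88e-04, Cdc20 0.048 and Kif11 0.023, and rescaling gave Kif11 0.028. Leave-one-out values ran over -0.072 to 0.11 for Aurka, -0.15 to 0.041 for Cdc20, -0.16 to 0.033 for Mki67, -0.074 to 0.046 for Kif11, -0.048 to 0.098 for Hmmr and -0.025 to 0.14 for Prc1. Without Control 1 and OGD 4 the values were -0.034 for Aurka, -0.072 for Hmmr and -0.046 for Prc1. Kif11 kept its sign there, at -0.14. Replicate numbers are shared by the groups, but no label says that they pair, so the numbers were not taken as pairs. Deviations of same-numbered libraries correlated at -0.222, 0.163, 0.0105 and 0.0902 (replicates 1 to 4, across genes). Those of differently numbered libraries correlated at -0.328 to 0.222. Among the members, replicate 4 was the highest library for most genes in both groups, and whether the numbers pair is not known. With the replicate number as a block, 16 members fell and 5 rose, Anln being lost (limma adjusted p = 0.0561) and Birc5 gained (limma adjusted p = 0.0217), and the calls over all genes went from 5519 to 5509.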

Other observations

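Markers of other cell types that such cultures can hold were read in the same fit, where 26.8% of all genes tested fell and 22.7% rose. Of 6 genes of myelinating oligodendrocytes, 4 fell in OGD and 1 rose, with a summed level of 594 to 776 FPKM over the Control libraries and 334 to 393 FPKM over the OGD libraries. Of 6 neuronal genes, 3 fell and 1 rose (266 to 330.1 and 253 to 329 FPKM). Most of that sum was Map2, with means of 224.9 FPKM in Control and 196.7 FPKM in OGD. Of 4 tested astrocyte genes, 1 fell and 0 rose, and the 6 genes listed summed to 101 to 109 FPKM in Control and 103 to 111 FPKM under OGD. Most of that sum was Slc1a3 (means of 63.4 FPKM in Control and 60.1 FPKM in OGD) and Sox9 (37.1 and 44.1 FPKM). Means of Gfap, Gja1, Aqp4 and Aldh1l1 were low, at 0.15 to 2.16 FPKM in Control and 0.12 to 2.42 FPKM in OGD. None of the genes in these marker lists was at 0 in all libraries, and their part in the values of the mitotic genes was not tested.

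The promoter words stood close together in some of the mitotic genes. In Cdk1 and in Kif23 a copy of TTTGAA began 4 bases after the end of a CCAAT box, and in Cdk1 the copy nearer the start lay 28 bases from another. These spacings are a description of the letters, with no measure of use in these cells.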
